A study of Mus musculus with 2 samples.

Results

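The tetraspanins described here are 8 genes, Cd9, Cd37, Cd53, Cd63, Cd81, Cd82, Cd151 and Tspan33. They were chosen by name, as the rows of the deposited count matrix that carry these symbols, and make up 8 of its 31053 genes. The cells are mouse bone marrow progenitors from hind limbs of C57BL/6 mice, sorted as negative for lineage markers, positive for c-Kit and negative for Sca1, and profiled one by one with 10x Genomics 3′ version 3 chemistry. There was 1 library labelled Runx1 KO, for which neither the number of mice nor the deleted part of Runx1 is given in the sources used here, and 1 library labelled Control. Control pooled the marrow of 1 Runx1f/f mouse with that of 1 Runx1f/- mouse, so Control includes an animal with a germline mutation in 1 of its Runx1 alleles. A further label field speaks of embryos, against the fields that name marrow and hind limbs, which were followed here. The product of Runx1 is a DNA-binding regulator of blood formation, with roles in platelet, lymphoid and myeloid differentiation.

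Tetraspanins are small proteins that cross the membrane several times and hold integrins, proteases and signalling receptors in shared patches of the cell surface or of internal vesicles. The members differ in partners and place: Cd9 and Cd151 bind integrins, Cd81 is found on many cell types, Cd37 and Cd53 belong to leukocytes, Cd63 sits mainly in late endosomes, lysosomes and secretory granules, and Tspan33 escorts the protease Adam10 to the surface. In marrow, Cd9 is a known protein of megakaryocytes and platelets, and Cd63 is carried by the granules of neutrophil precursors, basophils and platelets.

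The library labelled Runx1 KO held 7889 cells and 145590840 unique molecular identifiers (UMIs, each standing for 1 captured transcript), with a median of 16092 per cell. Control held 6906 cells and 162278272 UMIs, with a median of 21593.5 per cell. The authors' cell annotation gives each cell 1 of 18 classes, most of them named for a gene, and the libraries differed in their makeup: the Pf4 class, in which megakaryocyte markers summed to 6699.95 counts per 1000000 UMIs (CPM) in the library labelled Runx1 KO and 6344.56 CPM in Control, made up 22.6% and 3.21% of cells. The Prss34 class, named for a basophil protease, held 1 cell of the library labelled Runx1 KO and 337 cells of Control. Runx1 itself stood at 361 CPM in the library labelled Runx1 KO, against 143 CPM in Control, a ratio of 2.53 (95% interval 2.49 to 2.57), and was above Control in all 6 classes compared. Transcripts read at their 3′ end from outside a deleted part check nothing about the deletion, so every direction given here is that of the library labelled Runx1 KO. The libraries shared 13 cell barcodes, and in 0 of these did both cells have the same class.

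The stretch around the start site, where a factor such as Runx1 may bind, is shown for the members whose values carry the account: Cd63, the one that stood lower across classes, Cd9, which stood highest in the Pf4 class, and Cd53, whose whole-library ratio turned with the class makeup. The sequences are from RefSeq on GRCm38.p6, run 5′ to 3′ along the gene's strand from 250 bases before the start site to 50 after it, and have CG dinucleotides in capitals; in Cd53 the first 6 capitals are the Runx motif. Their places are chr10:128909095-128909394 on the plus strand for Cd63, chr6:125494711-125495010 on the minus strand for Cd9 and chr3:106790100-106790399 on the minus strand for Cd53. The Cd63 window lies inside the gene as GENCODE draws it, from 128900989 to 128912822 on chromosome 10.
Cd63: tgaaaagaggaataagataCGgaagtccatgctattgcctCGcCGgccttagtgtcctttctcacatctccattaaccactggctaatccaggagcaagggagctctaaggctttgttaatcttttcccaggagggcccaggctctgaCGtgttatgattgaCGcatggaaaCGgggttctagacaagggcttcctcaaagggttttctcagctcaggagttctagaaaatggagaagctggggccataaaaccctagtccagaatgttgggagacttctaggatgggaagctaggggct
Cd9: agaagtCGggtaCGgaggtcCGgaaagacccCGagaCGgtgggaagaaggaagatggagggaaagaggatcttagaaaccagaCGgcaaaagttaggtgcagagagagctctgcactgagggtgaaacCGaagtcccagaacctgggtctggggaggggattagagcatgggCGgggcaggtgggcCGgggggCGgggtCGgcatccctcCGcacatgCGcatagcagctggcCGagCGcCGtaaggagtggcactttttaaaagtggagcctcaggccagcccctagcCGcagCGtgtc
Cd53: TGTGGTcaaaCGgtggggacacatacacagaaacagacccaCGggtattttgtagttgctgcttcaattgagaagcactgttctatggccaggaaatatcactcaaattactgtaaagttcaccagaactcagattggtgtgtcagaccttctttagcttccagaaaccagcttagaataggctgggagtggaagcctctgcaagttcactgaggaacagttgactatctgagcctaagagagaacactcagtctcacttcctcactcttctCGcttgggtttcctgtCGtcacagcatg
All 8 members had at least 1 window, 12 in all. The Runx motif TGTGGT, read on both strands (ACCACA on the other), was found in the Cd53 window and in 2 of the 4 windows of Cd82, and in none of the windows of the other 6 members. Over all 32851 windows of the same length, 16.8% held it. No member's window held the GATA motif AGATAA, present in 11.2% of all windows, or the ETS motif CCGGAAG, present in 8.86%. The windows of Cd9, Cd81 and Tspan33 had 18, 23 and 21 CG dinucleotides, while those of Cd63 and Cd53 had 6 and 4, against a median of 7 over all windows (quartiles 3 and 20). A match of letters is a description and shows no binding.

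In the whole libraries, Cd9 and Cd81 were higher and Cd63 was lower in the library labelled Runx1 KO, by at least 1.5-fold. A gene counted as measured when the library with more of it held at least 30 CPM and the libraries together at least 100 UMIs, and as higher or lower when its log2 ratio, taken after adding 10 to both CPM values, passed 1.5-fold. With 1 library of each kind there is no test between genotypes: the intervals given are exact Poisson 95% intervals that cover counting error only, and the spread between mice is unknown. Cd9 stood at 231 CPM in the library labelled Runx1 KO and at 83.1 CPM in Control, a ratio of 2.78 (2.72 to 2.84). Cd81 stood at 298 CPM against 184 CPM, a ratio of 1.62 (1.60 to 1.64). Cd63 was the one on the other side, at 142 CPM in the library labelled Runx1 KO and 280.0 CPM in Control, a ratio of 0.508 (0.4998 to 0.517). These 2 higher and 1 lower were among 5 measured members, beside 4.28% of the 4600 measured genes that were higher by this rule and 1.65% that were lower. The median log2 ratio was 0.37 over the measured members and 0.00 over all measured genes.

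Of the other measured members, Cd37 stood at 107 CPM in the library labelled Runx1 KO against 80.4 CPM in Control (1.33, 1.30 to 1.36), and Cd53 at 50.7 CPM against 72.5 CPM (0.699, 0.679 to 0.719). Neither passed 1.5-fold. The remaining members fell short of the minimum. Cd82, a gene known as a suppressor of metastasis, had 14.4 CPM in the library labelled Runx1 KO and 17.3 CPM in Control. Cd151 had 20.2 and 16.2 CPM, and Tspan33, at 27.1 CPM and just under 30 CPM, missed the minimum narrowly.

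Each transcript belonged to its own set of classes. In both libraries Cd9 was highest in the Pf4 class and next in the Ltf class, named for a gene of late neutrophil granules. Cd63 was highest in the Prg2 class, named for an eosinophil granule protein, and then, in the library labelled Runx1 KO, in the Fcnb and Gstm1/CD63 classes of the neutrophil lineage. Cd53 was present in the CD34, Ly86, neutrophil-lineage and Prg2 classes and nearly absent from the Pf4, Car1 and Hba-a2 classes, where it stayed at or below 3.21 CPM in the library labelled Runx1 KO and 6.65 CPM in Control. Tspan33 was mostly in erythroid classes: the Hba-a2 and Car1 classes, which carry erythroid markers, held 61.3% and 35.0% of its UMIs in the library labelled Runx1 KO, and 44.6% and 48.5% in Control. Cd81 and Cd37 were spread over all the classes shown.

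**Figure D1:**
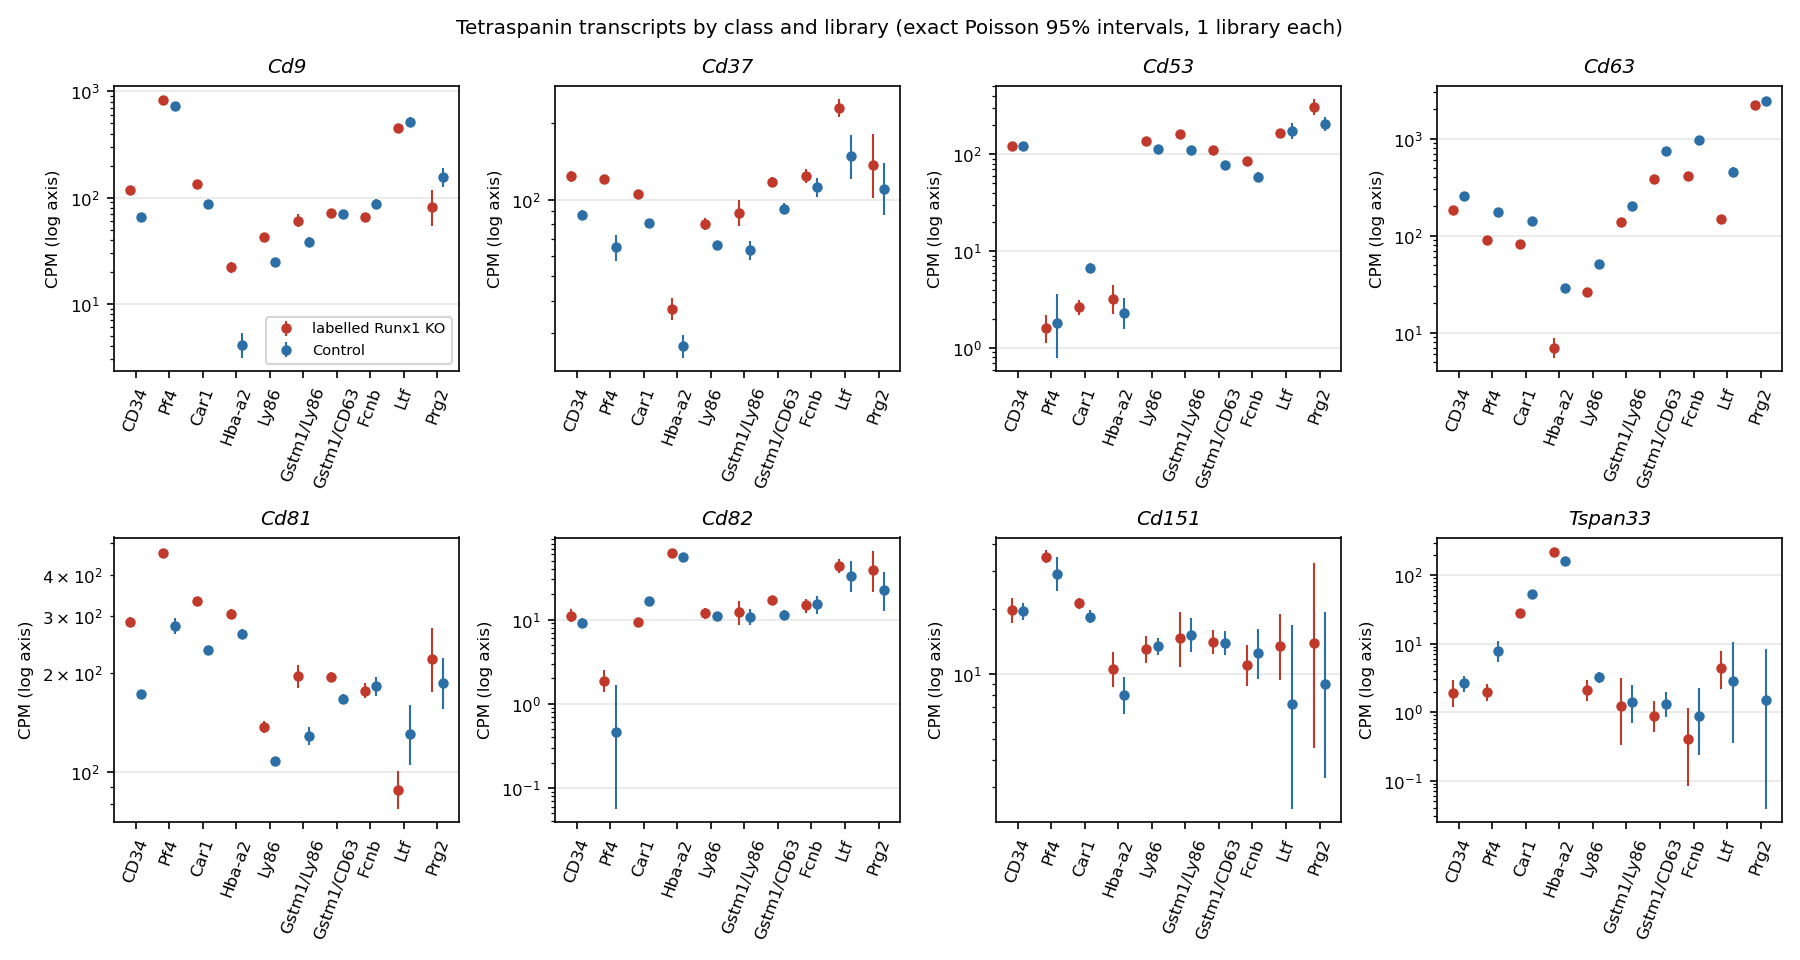
Summed CPM of each tetraspanin in 10 classes with at least 20 cells in each library, on log axes, in the library labelled Runx1 KO (red) and Control (blue); bars are exact Poisson 95% intervals for 1 library each. Cd63 lies below Control in every class shown, while Cd53 is near the bottom in the Pf4, Car1 and Hba-a2 classes of both libraries.

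Because the class makeup differed, the whole-library ratios mix the level in each class with the number of cells in it. The Pf4 class held 62.4% of all Cd9 UMIs of the library labelled Runx1 KO and 23.3% of those of Control. For Cd53, whose transcripts lie outside the Pf4 and Car1 classes, the Ly86 class is a main source, and it made up 7.01% of cells in the library labelled Runx1 KO against 19.2% in Control. For Cd63, the Prss34 class alone held 19.0% of the Control UMIs, at 1684 CPM.

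The shares of UMIs by class were then held at those of Control, over the 11 classes with at least 20 cells in each library. As measured over these 11 classes alone, the ratios were 2.98 for Cd9, 0.764 for Cd53, 0.604 for Cd63 and 1.62 for Cd81. With the shares held, the ratio of Cd9 was 1.43, beside 2.98 over these classes and 2.78 over all. That of Cd53 was 1.16 and so lay on the other side of 1 from its measured 0.764 and 0.699. Cd63 stayed below 1, at 0.569, somewhat further from 1 than its 0.604 over the same classes. Cd81 stayed above 1, at 1.37. With the shares of the library labelled Runx1 KO applied to Control, the ratios were 1.24 for Cd9, 1.14 for Cd53, 0.531 for Cd63 and 1.41 for Cd81. The 11 classes covered 99.8% of the UMIs of the library labelled Runx1 KO and 96.0% of those of Control. Without the Pf4 class, a step chosen after seeing the data, Cd81 was no longer past 1.5-fold, with a log2 ratio of 0.51, and Cd9 was, with 0.61.

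**Figure D2:**
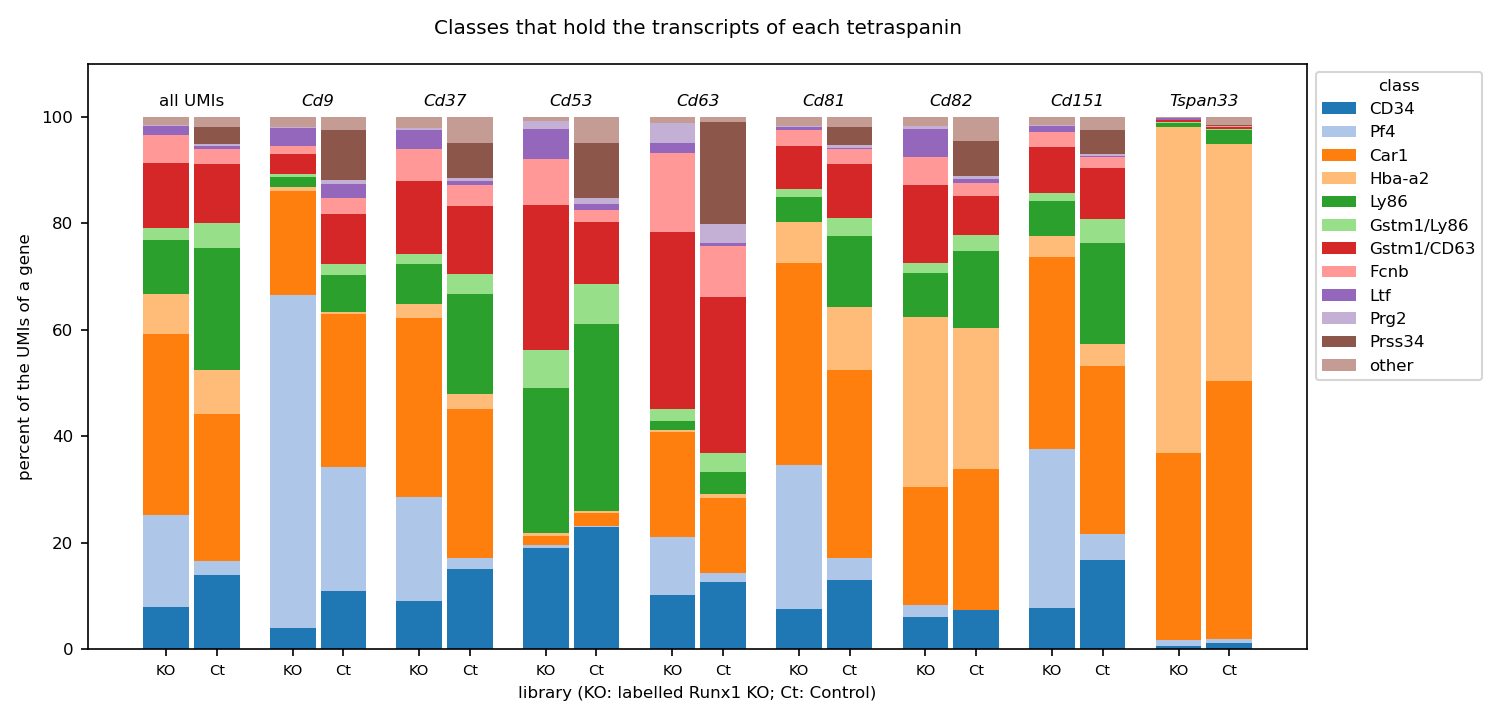
Percent of the UMIs of each tetraspanin, and of all genes (leftmost pair), that lie in each class, for the library labelled Runx1 KO (KO, left bar) and Control (Ct, right bar). The Pf4 class fills 62.4% of the Cd9 bar in the library labelled Runx1 KO and 23.3% in Control, and the Prss34 class appears in the Control bars.

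**Figure D3:**
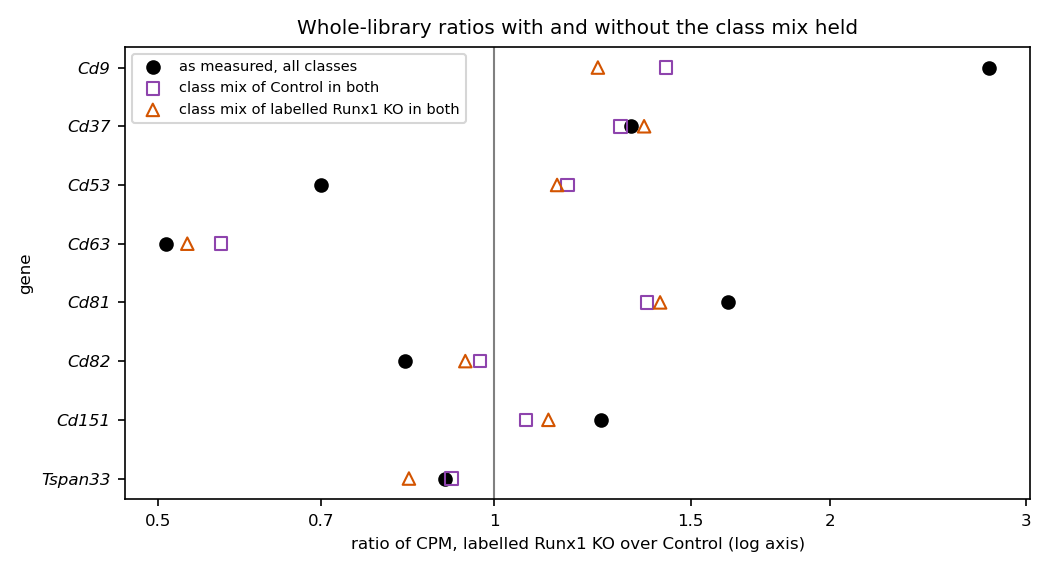
Ratio of CPM, library labelled Runx1 KO over Control, on a log axis, as measured over all classes (filled circles). Squares and triangles cover only the 11 classes with at least 20 cells in each library. They have the class mix of Control (squares) or of the library labelled Runx1 KO (triangles) in both. Cd53 is at 0.699 as measured and at 1.16 and 1.14 with the mix held, and Cd9 at 2.78, and at 1.43 and 1.24. Measured over those 11 classes alone, which is not drawn, the ratios are 0.764 for Cd53, 2.98 for Cd9 and 0.604 for Cd63.

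Within the 6 classes that had at least 200 cells in each library, 29 of the 48 pairs of member and class were measured, of which 4 were at least 1.5-fold higher and 5 lower in the library labelled Runx1 KO. In the CD34 class, Cd9 and Cd81 were higher and none lower, where 2.85% and 1.37% of all measured genes were higher and lower. In the Pf4 class, Cd37 and Cd81 were higher and Cd63 lower, beside 7.15% and 3.38% of genes. In the Car1 class, Cd63 and Tspan33 were lower, and none was higher, beside 1.95% of genes lower and 3.67% higher. The Hba-a2 class had none of its 4 measured members past 1.5-fold, and 1.8% and 0.751% of its genes were higher and lower. Cd63 was the single member past the line, and lower, in the Ly86 class and in the Gstm1/CD63 class, where 0.817% and 0.7% of genes were lower and 2.19% and 1.38% higher.

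**Figure D4:**
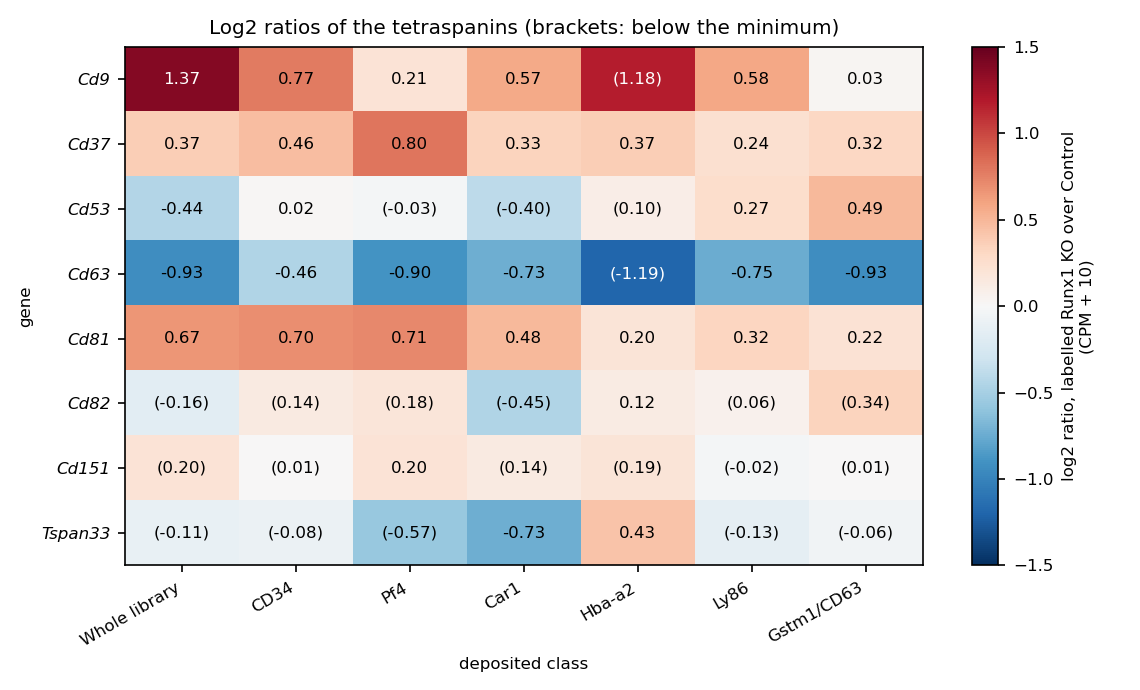
Log2 ratio of CPM plus 10, library labelled Runx1 KO over Control, for each tetraspanin (rows) in the whole library and the 6 compared classes (columns); values in brackets are below the minimum of 30 CPM and 100 UMIs. The Cd63 row is negative throughout, from -0.46 in the CD34 class to -0.93 in the Gstm1/CD63 class among measured values, and the Cd81 and Cd37 rows are positive throughout.

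Cd63, the endosome and granule tetraspanin, was lower in the library labelled Runx1 KO in all 11 classes shown, with counting intervals below 1 in each. The unannotated class is among the 11, although it held different cells in the libraries and no direction is read in it. The cells of the Pf4 class also fell in different clusters by library, as given below. In the Gstm1/CD63 class, which bears its name and in which its high level is therefore no finding, it stood at 383 CPM in the library labelled Runx1 KO and 737 CPM in Control, a ratio of 0.519 (0.504 to 0.535). In the Fcnb class, named for a granule gene of neutrophil precursors, it stood at 411 CPM against 958 CPM (0.429, 0.410 to 0.450). In the Ltf class it stood at 147 CPM against 454 CPM (0.325, 0.278 to 0.378). Of these 3 neutrophil-lineage classes the ratio was smallest in the last, and the intervals of the 3 do not overlap. A trend along the lineage was not tested. In the Gstm1/Ly86 class Cd63 stood at 137 CPM in the library labelled Runx1 KO and 203 CPM in Control (0.675, 0.606 to 0.750). The Ltf class had 221 cells in the library labelled Runx1 KO and 50 cells in Control.

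Outside the neutrophil lineage Cd63 stood at 183 CPM in the library labelled Runx1 KO and 255 CPM in Control in the CD34 class (0.718, 0.683 to 0.755). In the Pf4 class the values were 90.3 and 177 CPM (0.511, 0.471 to 0.555), in the Car1 class 81.8 and 142 CPM (0.576, 0.554 to 0.600), and in the Ly86 class 26.0 and 50.6 CPM (0.515, 0.460 to 0.575). The eosinophil-named Prg2 class differed least, with 2204 CPM in the library labelled Runx1 KO and 2438 CPM in Control (0.904, 0.829 to 0.985), from 25 and 37 cells. In the Hba-a2 class Cd63 was below the minimum, at 6.98 CPM in the library labelled Runx1 KO and 28.6 CPM in Control. The ratio there was 0.244 (0.188 to 0.313). Control also held the Prss34 class, with Cd63 at 1684 CPM. The part of other cells' transcripts in the low Cd63 values of the Ly86 and Hba-a2 classes was not tested.

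The lower Cd63 in the Gstm1/CD63 class went with fewer cells that showed the transcript and with a wider spread between cells. After every cell was thinned to 5000 UMIs, 64.2% of the class's cells had a Cd63 UMI in the library labelled Runx1 KO and 91.8% in Control, and the variance over the mean was 3.82 and 2.14. Without thinning the shares were 86.9% and 98.6%, at median depths of 26825 and 28810 UMIs per cell. In the Fcnb class 69.4% of thinned cells had one in the library labelled Runx1 KO against 98.3% in Control. The Hba-a2 class, a late erythroid class that gives the low end, had 2.72% and 12.1% of thinned cells with a Cd63 UMI, and 13.2% and 35.0% before thinning, at median depths of 37146 and 51294.5 UMIs. The neutrophil progenitor markers of the Gstm1/CD63 class were measured for 7 of 8 genes, with 0 higher and 1 lower in the library labelled Runx1 KO. Markers of some other cells were higher there: those of megakaryocytes summed to 201 CPM in the library labelled Runx1 KO and 42.4 CPM in Control (2 of 2 measured higher), those of mature neutrophils to 158 and 65.9 CPM (3 of 3), those of eosinophils to 157 and 106 CPM (1 of 2), and those of monocyte progenitors to 180 and 118 CPM (1 of 2). Basophil and mast cell markers summed to 385 and 365 CPM, with 0 higher and 1 lower of 3 measured. Erythroid markers summed to 41.5 and 52.2 CPM, and those of T, NK and innate lymphoid cells to 632 and 820 CPM. The part of any of these cells in the Cd63 values was not tested.

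Cd9, the integrin-binding tetraspanin of megakaryocytes, had a ratio near 1 in the Pf4 class, where its level was highest in both libraries. In the Pf4 class it stood at 835 CPM in the library labelled Runx1 KO and 721 CPM in Control, a ratio of 1.16 (1.12 to 1.20), and 92.9% and 95.1% of thinned cells had a Cd9 UMI. The ratio was larger in the CD34 class, named for a progenitor surface protein, with 119 CPM against 65.4 CPM (1.82, 1.69 to 1.96). In that class megakaryocyte markers moved the same way, with 5 of the 5 measured higher and a sum of 583 CPM in the library labelled Runx1 KO against 134 CPM in Control; their part in the result was not tested.

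In the Car1 class, named for a carbonic anhydrase of early erythroid cells, Cd9 stood at 133 CPM in the library labelled Runx1 KO and 86.2 CPM in Control (1.54, 1.48 to 1.61), just short of 1.5-fold on the scale with 10 added. In the Ly86 class it stood at 42.1 CPM against 24.9 CPM (1.69, 1.53 to 1.88). Megakaryocyte markers there summed to 125 CPM in the library labelled Runx1 KO and 24.6 CPM in Control (2 of 2 measured higher) and mature neutrophil markers to 535 and 28.4 CPM (4 of 4), and their part was not tested. Cd9 stood in the Gstm1/CD63 class at 72.2 CPM against 70.5 CPM (1.02, 0.947 to 1.11). Neutrophil and eosinophil classes went the other way: Fcnb, with 65.2 CPM in the library labelled Runx1 KO and 87.4 CPM in Control, Ltf, with 451 and 513 CPM, and Prg2, with 81.2 and 155 CPM. Cd9 was therefore not higher in every class of the library labelled Runx1 KO. In the Hba-a2 class it was below the minimum, at 22.0 CPM in the library labelled Runx1 KO and 4.11 CPM in Control, and the summed megakaryocyte markers there were 146 and 14.6 CPM, the summed markers of mature neutrophils 887 and 71.5 CPM. The part of these other cell types' transcripts in the low Cd9 values was not tested.

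The Car1 class held different cells in the libraries. Its megakaryocyte markers summed to 729 CPM in the library labelled Runx1 KO and 278 CPM in Control, with 4 of 5 measured higher, and its erythroid markers to 911 and 1578 CPM, with 1 of 7 measured higher and 3 lower. When all cells were clustered afresh without the 8 tetraspanins, clusters with megakaryocyte markers took 1752 of the 3003 Car1 cells of the library labelled Runx1 KO and 13 of the 2210 of Control. Clusters with erythroid markers took 1235 and 2088 of them. Over the cells in these erythroid-like clusters alone, the log2 ratio of Cd9 was -0.43, against 0.57 over the whole class, so that its direction turned. The fresh clusters divided largely by library, and a cluster made mostly of 1 library may be that library and not a cell type. The Pf4 class was split in the same way. Of its 1782 cells of the library labelled Runx1 KO, 1746 were in megakaryocyte-like clusters, and 213 of its 222 Control cells were in erythroid-like ones. Yet the Pf4 class of Control had 6345 CPM of megakaryocyte and 319 CPM of erythroid markers, so the cluster name does not give the type of these cells. Erythroid-like clusters of 2 and 366 cells, and of 15 and 1748 cells, in the library labelled Runx1 KO and Control had Pf4 among their leading genes.

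To see how the members vary inside the Car1 class, its cells were thinned to 5000 UMIs and divided by their UMIs of Itga2b, the integrin chain of the platelet fibrinogen receptor, a division chosen after seeing the data. Cells without an Itga2b UMI were 39.3% of the class in the library labelled Runx1 KO and 73.8% in Control. Among them Cd9 stood at 68.4 CPM in the library labelled Runx1 KO and 70.7 CPM in Control, and among cells with 1 or 2 at 135 and 148 CPM. Among cells with 3 or more it stood at 239 and 372 CPM, from 724 and 72 cells. Cd9 was not above Control in any of these 3 groups. The intervals overlapped in the first 2. In the last they did not, at 223 to 255 CPM in the library labelled Runx1 KO and 312 to 441 CPM in Control. Divided instead by Klf1, also chosen after seeing the data, which encodes an erythroid transcription factor, the same cells had Cd9 above Control in 2 of 3 groups: 159 CPM in the library labelled Runx1 KO and 134 CPM in Control without a Klf1 UMI, 89.5 and 66.2 CPM with 1 or 2, and 27.2 and 67.7 CPM with 3 or more, from 81 and 124 cells. In the CD34 class divided by Itga2b, Cd9 stood at 84.6 and 64.6 CPM without a UMI, at 104 and 88.6 CPM with 1 or 2, and at 232 and 182 CPM with 3 or more, where Control had 22 cells; the intervals overlapped in each. The place of Cd9 within these classes thus depends on the gene used to divide them. Itga2b itself was higher in the library labelled Runx1 KO, so cells with equal Itga2b UMIs are not equal cells.

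Cd63 and Cd81 kept their directions in all 3 groups of Car1 cells. Cd63 stood at 58.4 CPM in the library labelled Runx1 KO and 145 CPM in Control without Itga2b UMIs, at 98.9 and 169 CPM with 1 or 2, and at 107 and 186 CPM with 3 or more. Cd81 stood at 308 and 225 CPM, at 319 and 235 CPM, and at 378 and 236 CPM. Tspan33 was lower in cells with more Itga2b in both libraries, at 41.0 and 44.6 CPM without it, 11.4 and 24.7 CPM with 1 or 2 and 7.73 and 13.9 CPM with 3 or more. Divided by Klf1 instead, Tspan33 stood at 16.4 CPM in the library labelled Runx1 KO and 29.3 CPM in Control without a Klf1 UMI. It stood at 31.7 and 48.2 CPM with 1 or 2. With 3 or more it stood at 59.3 and 45.2 CPM, with overlapping intervals, from 81 and 124 cells.

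**Figure D5:**
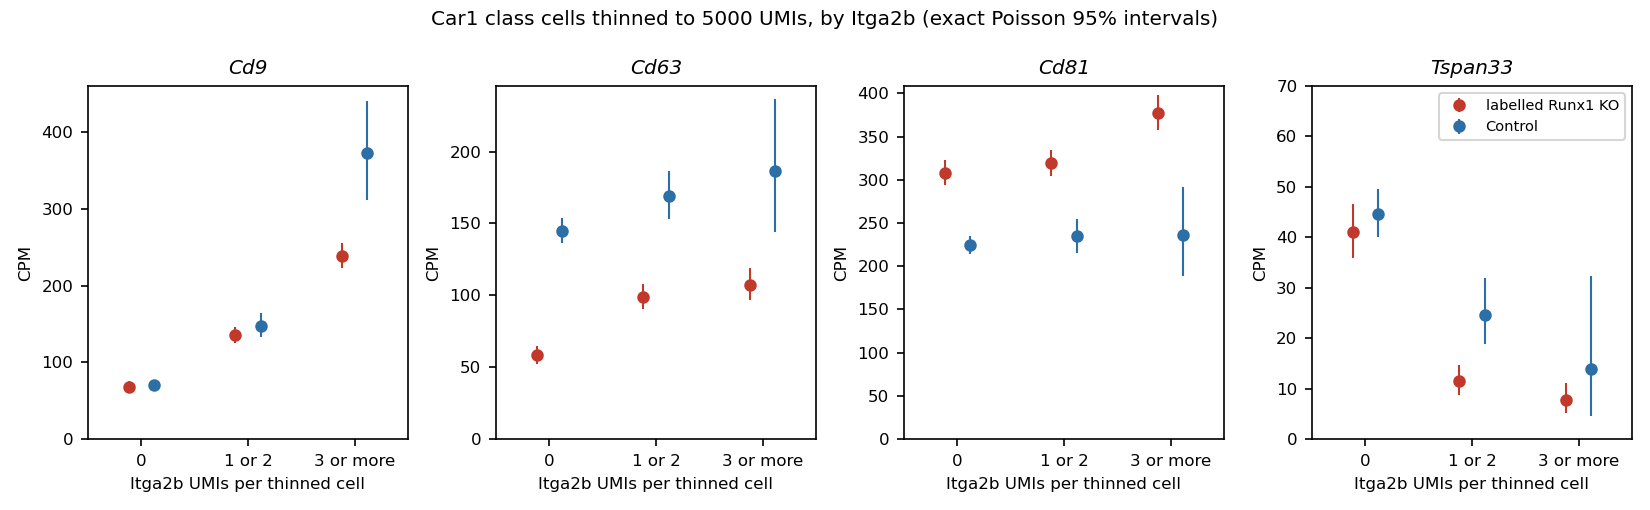
CPM of Cd9, Cd63, Cd81 and Tspan33 in Car1 class cells thinned to 5000 UMIs, by Itga2b UMIs per thinned cell, in the library labelled Runx1 KO (red) and Control (blue), with exact Poisson 95% intervals. Cd9 is at 68.4 and 70.7 CPM in cells without an Itga2b UMI, where Cd63 is at 58.4 and 145 CPM.

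Cd81, a widely expressed tetraspanin, was above Control in all 6 compared classes by its counting interval. It stood at 466 CPM in the library labelled Runx1 KO and 280 CPM in Control in the Pf4 class (1.66, 1.57 to 1.77), and at 286 and 173 CPM in the CD34 class (1.66, 1.58 to 1.73). Of the CD34 cells, 210 of 679 in the library labelled Runx1 KO and 9 of 1076 in Control were in megakaryocyte-like fresh clusters, and the part of this in the CD34 ratios was not tested. The Car1 class had 332 and 235 CPM (1.41, 1.38 to 1.45). The ratios were nearer 1 in the Ly86 class (137 and 108 CPM, 1.27), the Gstm1/CD63 class (196 and 167 CPM, 1.17) and the Hba-a2 class (304 and 264 CPM, 1.15). Among the classes shown, the late neutrophil Ltf class alone had an interval below 1, with 88.2 CPM in the library labelled Runx1 KO and 130 CPM in Control (0.676, 0.527 to 0.874). The interval of the ratio held 1 in the Fcnb class (0.970, 0.889 to 1.06) and in the Prg2 class (1.18, 0.882 to 1.58). Thinned cells with a Cd81 UMI were 87.0% of the Pf4 class in the library labelled Runx1 KO and 77.6% in Control. In the Hba-a2 class the shares were 78.6% and 72.1%, and the lowest among the classes shown were those of the Ltf class in the library labelled Runx1 KO, 25.6%, and of the Ly86 class in Control, 40.5%.

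Cd151, a partner of laminin-binding integrins, was measured in the Pf4 class alone, at 35.1 CPM in the library labelled Runx1 KO and 29.3 CPM in Control (1.20, 0.995 to 1.45), an interval that holds 1. In the other compared classes it lay between 10.6 and 21.3 CPM in the library labelled Runx1 KO and between 7.99 and 19.6 CPM in Control. Its place among the classes was like that of Cd9: over the 12 points given by the 6 compared classes and 2 libraries, the correlation of their log2(CPM + 10) values was 0.96. The points of a library share its depth and its free RNA, so this is a description.

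Cd37, a leukocyte tetraspanin best known from mature B cells, was above Control in all 6 compared classes by its interval and past 1.5-fold in 1. In the Pf4 class it stood at 120 CPM in the library labelled Runx1 KO and 65.0 CPM in Control (1.85, 1.64 to 2.10), and 45.2% and 25.9% of thinned cells had a Cd37 UMI. In the Hba-a2 class those shares were 17.3% and 13.6%, at 37.5 and 26.7 CPM (1.40, 1.22 to 1.62). The CD34 class had 123 and 87.1 CPM (1.42, 1.32 to 1.52), and the smallest ratio was 1.21 (1.13 to 1.30) in the Ly86 class, with 80.3 and 66.4 CPM. In the Ltf class Cd37 stood at 229 CPM in the library labelled Runx1 KO and 148 CPM in Control (1.55, 1.25 to 1.93). The Vpreb1 class, named for a B cell precursor gene, had 4 cells in the library labelled Runx1 KO and 21 in Control, where Cd37 stood at 386 CPM, its highest among classes of at least 20 Control cells.

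Cd53, found on nearly all leukocytes, was not lower in any of the compared classes in which it was measured, although it was lower over the whole library. It stood at 122 CPM in the library labelled Runx1 KO and 120 CPM in Control in the CD34 class (1.01, 0.949 to 1.08), at 137 and 112 CPM in the Ly86 class (1.22, 1.16 to 1.29), and at 112 and 76.7 CPM in the Gstm1/CD63 class (1.46, 1.36 to 1.56). The Fcnb class had 85.7 and 57.9 CPM (1.48, 1.28 to 1.72), and the Gstm1/Ly86 class 162 and 112 CPM (1.45, 1.30 to 1.62). In the Gstm1/CD63 class 42.1% of thinned cells had a Cd53 UMI in the library labelled Runx1 KO and 29.6% in Control, while in the Hba-a2 class 1.02% and 0.368% had one. In the Car1 class Cd53 was below the minimum, at 2.64 CPM in the library labelled Runx1 KO and 6.65 CPM in Control (0.396, 0.320 to 0.488). Of thinned Car1 cells 0.890% and 2.34% had a Cd53 UMI, the Control share being above that of the Hba-a2 class. As the gene was not measured in the Car1 class, no direction is read there. In the class the authors left unannotated it stood at 7.37 CPM in the library labelled Runx1 KO and 171 CPM in Control, where Cd9 stood at 323 and 90.5 CPM, so no direction is read in that class either.

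Tspan33, first known in mice from erythroid progenitors, went in opposite directions in the erythroid classes. In the Hba-a2 class, named for alpha globin, it stood at 222 CPM in the library labelled Runx1 KO and 162 CPM in Control (1.37, 1.29 to 1.45), and 68.0% and 51.8% of thinned cells had a UMI. The erythroid markers of that class moved the same way, with sums of 6364 and 4785 CPM and 4 of 10 measured higher and 0 lower; their part in the result was not tested. In the Car1 class it stood at 27.8 CPM against 52.6 CPM (0.529, 0.494 to 0.565), and 9.24% and 16.4% of thinned cells had one. In the Gstm1/CD63 class, where it is near background, the shares were 0.459% and 0.505%. The low Car1 value went with the lower erythroid and higher megakaryocyte markers of that class given above. Over the Car1 cells in erythroid-like clusters the log2 ratio was 0.02, against -0.73 over the whole class. Those clusters took 1235 of the 3003 Car1 cells of the library labelled Runx1 KO and 2088 of the 2210 of Control. The step thus kept a selected part of 1 library and nearly all of the other. The 0.02 is no comparison of like cells.

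Cd82 was measured in the Hba-a2 class alone of the compared ones, at 61.6 CPM in the library labelled Runx1 KO and 55.9 CPM in Control (1.10, 0.992 to 1.23), an interval that holds 1. Thinned cells with a Cd82 UMI were 28.9% and 21.7% of that class, at median depths of 37146 and 51294.5 UMIs; unthinned, 2.58% and 0.901% of Pf4 cells had one, at 13028.5 and 18341.5 UMIs. In the Ltf class it stood at 43.9 CPM in the library labelled Runx1 KO and 33.3 CPM in Control (1.32, 0.834 to 2.16). In the Car1 class it was below the minimum, with 9.38 and 16.5 CPM (0.568, 0.505 to 0.639). Cd82 and Tspan33 followed each other over the 12 points with a correlation of 0.80.

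The genes whose level over the same 12 points was most like each member's were sought among 5657 genes by Pearson correlation of log2(CPM + 10). For Cd9 they were Tbxas1, which encodes thromboxane synthase, at 0.98, and Eml2 at 0.97. For Cd63 they were Per3 at 0.91 and Nkg7, which encodes a granule membrane protein of lymphocytes, at 0.90, the loosest likeness of the 8. Cd53 was followed by Plppr3 at 1.00 and by the chemokine gene Ccl9 at 0.99, and Tspan33 by Spire1 and Fam234b, both at 0.99. Cd81 had Nt5dc1 and Tom1l1, both at 0.96, Cd37 had Tcp11l2 at 0.97 and Slc50a1 at 0.96, Cd82 had Slc39a8 and Stradb, both at 0.98, and Cd151 had Tln1, which encodes talin, and Sugp2, both at 0.99. With 12 points that share depth and class makeup these are descriptions, and rank correlation named the same pair of genes for none of the 8 members.

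Among the integrins that tetraspanins bind, 4 chains were higher in the library labelled Runx1 KO. Of 18 listed partners 9 were measured in the whole library, and 4 were higher and 0 lower, beside the 4.28% and 1.65% of all measured genes, with a median log2 ratio of 0.44. Itga2b stood at 396 CPM in the library labelled Runx1 KO and 54.0 CPM in Control (7.33, 7.17 to 7.50), and Itgb3, the other chain of the platelet fibrinogen receptor, at 43.8 and 5.31 CPM (8.25, 7.68 to 8.87). Itga6, a chain of laminin receptors, stood at 111 and 34.2 CPM (3.25, 3.15 to 3.35), and Itgb2, the shared chain of leukocyte integrins, at 38.4 and 15.1 CPM (2.54, 2.42 to 2.66). Within the Pf4 class, where Cd9 had a ratio of 1.16, Itga2b and Itgb3 stood at 1347 and 553 CPM (2.44, 2.34 to 2.54) and at 194 and 79.1 CPM (2.45, 2.20 to 2.74). Adam10, the protease that Tspan33 escorts, stood at 103 CPM in the library labelled Runx1 KO and 73.5 CPM in Control; it and the Pf4 class values were named after they were seen.

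Of 23 other tetraspanin genes, 6 were measured in the whole library, with 1 higher and 0 lower beside 4.28% and 1.65% of all measured genes, and with a median log2 ratio of -0.02. That one was Tspan32, a blood cell tetraspanin, at 274 CPM in the library labelled Runx1 KO and 155 CPM in Control (1.77, 1.74 to 1.79). Tspan14 stood at 30.6 and 22.3 CPM, Tspan31 at 32.8 and 42.9 CPM and Tspan3 at 32.7 and 39.7 CPM. In the Pf4 class Tspan32 stood at 520 CPM in the library labelled Runx1 KO and 295 CPM in Control (1.76, 1.66 to 1.87), and in the Ly86 class at 81.6 and 81.0 CPM (1.01, 0.942 to 1.08); both class values were chosen after they were seen.

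The lists of vesicle and lysosome genes held no measured gene lower by 1.5-fold in the whole library, where 1.65% of all measured genes were lower and 4.28% higher, so a count of 0 lower says little. Of 14 genes of extracellular vesicle machinery 8 were measured, with 1 higher, 0 lower and a median log2 ratio of 0.16. Rab27b, a GTPase that brings granules to the membrane, stood at 76.5 CPM in the library labelled Runx1 KO and 13.6 CPM in Control (5.61, 5.36 to 5.87), Flot1 at 62.0 and 44.2 CPM, the syntenin gene Sdcbp at 211 and 158 CPM and Rab35 at 43.0 and 36.1 CPM. The Pf4 class held 7841 of the 11140 Rab27b UMIs of the library labelled Runx1 KO and 1067 of the 2215 of Control. Rab27b stood there at 312 and 244 CPM (1.28, 1.20 to 1.36), and in the CD34 class at 33.4 and 6.09 CPM (5.48, 4.50 to 6.71). Both class values were chosen after they were seen. Of 11 late endosome and lysosome membrane genes 5 were measured and none passed 1.5-fold, with a median of 0.10. Lamp2, a major lysosome membrane protein, stood at 89.6 CPM in the library labelled Runx1 KO and 70.4 CPM in Control (1.27, 1.24 to 1.31), and the adaptor subunits Ap3b1, Ap3d1 and Ap3s1 at 62.3 and 56.8, 30.8 and 28.0, and 255 and 289 CPM. In the Gstm1/CD63 class, where Cd63 had a ratio of 0.519, Lamp2 stood at 108 and 92.1 CPM (1.17, 1.10 to 1.25), a value also chosen after it was seen. Of the 11 listed genes 4 were measured in that class, with 0 higher, 0 lower and a median log2 ratio of 0.11.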

How the data were processed

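The deposited matrix holds UMI counts for 31053 genes in 14795 cells of 2 libraries. Cell Ranger and mm10 are named in the submitters' processing notes, with no version or settings. The deposited cell annotation also holds UMI counts per cell, a fraction of mitochondrial UMIs, a size factor (a ratio), the library name and the class; no source used here says how the authors assigned classes. Its wild type library was taken to be Control. The matrix sum equalled the annotated UMIs in all 14795 cells. The 8 members were matched by symbol, each to 1 identifier, and placed with GENCODE on GRCm38.

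UMIs were summed per library, or per library and class, and given as CPM; ratios have exact Poisson and shares exact Clopper-Pearson 95% intervals, both for counting error only. Each library is 1 sample, so no test between genotypes was made. Thinning drew 5000 UMIs per cell without replacement and left out shallower cells, 346 in the library labelled Runx1 KO and 465 in Control. No cell was removed from the main values; Scrublet marked 286 cells (3.63%) and 164 cells (2.37%) as doublets, which an alternative left out. Fresh clusters were Leiden clusters on the 2000 most variable genes without the members, 30 principal components, 15 neighbours and resolution 0.5 (scanpy 1.11.5), named by marker lists. TMM scaling used edgeR 4.0.16. Python 3.11.15, numpy 2.4.6, scipy 1.17.1 and pandas 2.3.3 were used. Calls and intervals were tested on simulated Poisson counts, which is the model the intervals assume. That test therefore says nothing about the spread between cells or mice. Genes named were all 8 members, up to 4 measured genes with the largest absolute log2 ratio from each list, the 2 genes most like each member and Runx1; others are said to be chosen after their values were seen. The members and lists were chosen with earlier results of these data known.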

Additional observations from a re-analysis of the deposited data

Results flagged for a closer look

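Tspan33 differed in opposite directions between 2 classes: its ratio, library labelled Runx1 KO over Control, was 0.529 in the Car1 class and 1.37 in the Hba-a2 class. With 1 library of each kind the difference between the classes was not tested. Of the Car1 cells of the library labelled Runx1 KO, 1752 of 3003 lay in megakaryocyte-like clusters, and over the Car1 cells in erythroid-like clusters the log2 ratio was 0.02. The erythroid-like clusters took 1235 of the 3003 cells and, in Control, 2088 of 2210, so this is no comparison of like cells.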

How the results depend on the processing

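Counts of members past 1.5-fold in the whole library were 2 higher and 1 lower. They moved to 2 lower with the mean over cells of each cell's CPM, where Cd53 joined with a log2 ratio of -0.61, and to 1 higher and 0 lower at 2-fold. Without the Pf4 class, and without the Prss34 and Pf4 classes, 1 was higher; both steps were chosen after seeing the data. Over pairs of member and class (4 higher, 5 lower) the counts were 0 and 0 at 2-fold. They were 2 higher and 3 lower in cells of the fresh clusters paired with each class, where 24 pairs were measured and the Pf4 class gave no value. There the log2 ratio of Tspan33 in the Car1 class reversed to 0.0224, and the cause was not tested. The CD34 class was paired with lymphoid progenitor-like clusters, which took 233 of 679 cells of the library labelled Runx1 KO and 591 of 1076 of Control. Its lymphoid progenitor markers summed to only 4.02 and 15.6 CPM, and its neutrophil progenitor markers to 4668 and 5977 CPM. For the CD34 class the step is therefore no restriction to its lineage. The 11 pairs past 1.5-fold with no minimum applied had the same sign under a pseudocount of 1, TMM, scaling without mitochondrial and globin genes, and the left-out high-mitochondrial, doublet and deepest cells. No scaling moved the median of all genes by over 0.1.

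No paired analysis was possible because each group is 1 library. Counting intervals do not hold the spread between mice, and Cd82, Cd151 and Tspan33 were too low in most classes for a ratio to be read.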

Other observations

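Some tetraspanin transcripts were carried by classes that had under 20 cells in the library labelled Runx1 KO, so that their levels are those of Control and no ratio is read. In the 337 Control cells of the Prss34 class, 321 of which fell in fresh clusters with basophil and mast cell markers, Cd63 stood at 1684 CPM, second to the Prg2 class among the Control classes, and Cd9 at 246 CPM, below the Pf4 and Ltf classes alone. Cd53 stood there at 239 CPM, its highest Control value, although the counting interval overlapped that of the Prg2 class at 206 CPM. The 56 Control cells of the Cd74 class, named for the invariant chain of antigen-presenting cells, had the highest value of Cd82 among classes of at least 20 Control cells, 74.7 CPM, with an interval that overlapped that of the Hba-a2 class at 55.9 CPM. Tspan33, otherwise a transcript of the erythroid classes, stood at 88.4 CPM in the Cd74 class, above the 52.6 CPM of the Car1 class. Cd63 and Cd81 were low in the Cd74 class, at 39.8 and 29.9 CPM.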
